A study of Mus musculus with 7 samples.

Results

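The cytosolic ribosomal protein genes were followed in epithelial cells of the developing and adult mouse lung. Members were chosen by gene symbol alone: rows named Rpl or Rps with a number, Rplp or Rpsa, including paralogs that end in l, without pseudogene rows marked -ps and without the Rps6k kinases. The rule found 83 of the 21121 genes listed, 33 named for the small subunit and 50 for the large subunit. The cells came from C57BL/6 mice at embryonic day 13.5 (E13.5, 1 library), E15.5 (1 library), E18.5 (2 libraries), postnatal day 14 (P14, 1 library) and P56 (2 libraries), and the labels name no mutant allele and no treatment of the animals. All lungs were digested with collagenase, Dispase II and DNase I, and cells positive for Epcam, an epithelial surface protein, were sorted after dead cells and cells with CD31, CD45, Ter119 or CD146 had been set aside. RNA was read by 3' SAGE sequencing, in which a short tag near the 3' end stands for a transcript. The sorted population mixes all Epcam-positive cells, and values are scaled within each library. A lower value can mean fewer cells of a type, less of that RNA per cell or a larger share of other RNAs. These cannot be told apart in these libraries. Separate animals, litters or sorts are named for no library, so a p-value measures the spread between these samples and nothing more.

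Each cytosolic ribosome is built from ribosomal RNA and a set of ribosomal proteins, nearly all present in a single copy. The exceptions are the acidic stalk proteins, which recruit the translation factors and are present in more than 1 copy. Messenger RNAs of these proteins are known to begin with a cytosine followed by a run of pyrimidines, the 5' terminal oligopyrimidine tract, through which their translation responds to mTOR signalling. Growing cells are known to make many ribosomes.

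Depth ranged from 2559927 to 3895740 reads per library. Values are the authors' scaled tag counts, in which 1 read was worth 0.236 to 0.385 units, and by age means E13.5, E15.5, E18.5 replicates 1 and 2, P14 and P56 replicates 1 and 2 wherever values are listed. Levels are compared within a gene because a 3' tag does not read all genes equally. Epcam, the sorted marker, was detected in every library, at 152 and 213 in the E13.5 and E15.5 libraries, 85.1 and 55.8 in the E18.5 pair, 57.5 at P14 and 109 and 60.9 in the P56 pair, and the lung epithelial factor Nkx2-1 stood at 502 (E13.5), 1279 (E15.5), 1459 and 1969 (E18.5), 1406 (P14) and 1110.4 and 980.1 (P56). Markers of cells removed by the sort were low: the 6 immune markers in the files took 2.57e-05% to 0.00233% of reads, the 8 erythroid markers 0% to 0.00463%, the 10 endothelial markers 0.00508% to 0.0239%, and Ptprc (CD45) and Pecam1 (CD31) had 0 to 4 reads in each library. The 13 mesenchymal markers summed to more in the early libraries through Vim, with 0.285% of reads (E13.5) and 0.152% (E15.5) there, 0.0240% and 0.0244% in the E18.5 pair, 0.0214% (P14), and 0.0139% and 0.00926% in the P56 pair. Vim had 10852 and 3324 reads in the 2 early libraries and 125 in the second P56 library. The other 12 markers together took 0.00649% (E13.5) and 0.0219% (E15.5) of reads, and 0.0131% and 0.0116% in the E18.5 pair. They took 0.00825% at P14, and 0.00953% and 0.00539% in the P56 pair. Without Vim E13.5 was thus not high, and E15.5 was the highest library. Col1a1 had 21 reads at E13.5 and 60 and 110 in the E18.5 pair, Tcf21 had 0 at E13.5 and 35 and 23 in that pair, and Dcn had 60 at E13.5 and 249 and 136 in the P56 pair. Postn had 0 or 1 read in every library, and Pdgfrb had reads only at E15.5, where it had 5. The part of these markers in the stage differences below was not tested.

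The set took 17.8% of all reads at E13.5 (95% exact binomial interval 17.8% to 17.9%), the largest share of the 7 libraries. In the E15.5 library it was 15.9%. The E18.5 pair had 11.3% and 9.23% (10.2% ± 1.43, SD, n = 2), the P14 library 8.41%, and the P56 pair 7.57% and 7.998% (7.78% ± 0.306, SD, n = 2). Both early libraries stood above all other libraries, and the P14 and P56 libraries stood below both E18.5 libraries. Binomial intervals cover counting error only, and no test was run on a summed share. The share was concentrated in few genes: the 5 most abundant members, among them Rpl8, Rpl5 and Rpl10a, held 54.3% to 62.4% of the members' reads, and the 16 with a mean above 1000 held 88.4% to 94.96%. The other members together took 1.33% of all reads (E13.5), 1.02% (E15.5), 0.794% and 0.465% (E18.5), 0.788% (P14), and 0.758% and 0.930% (P56), so the summed share mainly describes the abundant members.

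**Figure D1:**
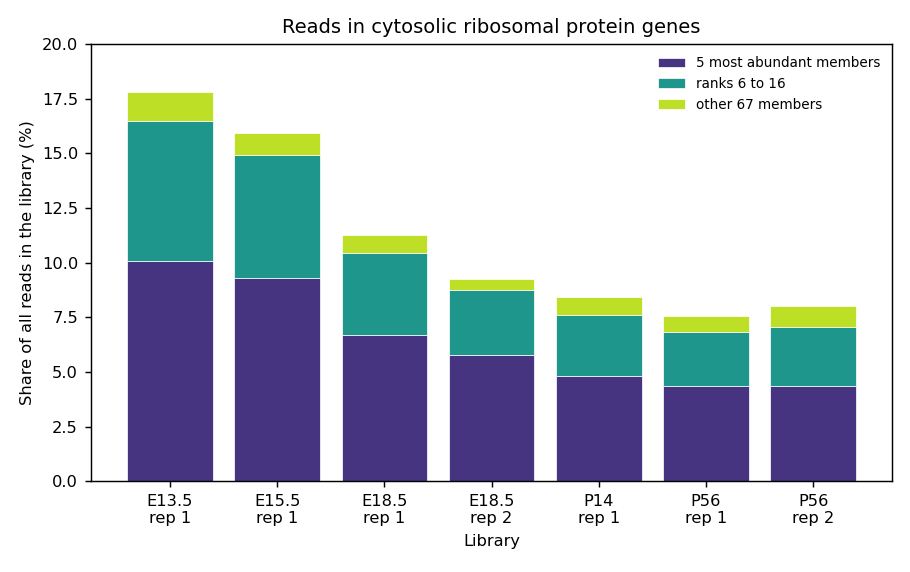
Share of all reads (%) in cytosolic ribosomal protein genes in each of the 7 libraries, stacked from the bottom as the 5 most abundant members together, then the remaining members with a mean above 1000, then the rest. The whole bar is 17.8% at E13.5 and 15.9% at E15.5 and lies between 7.57% and 8.41% in the 3 postnatal libraries.

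Mean values over the 7 libraries spanned from members with almost no reads to Rpl8. Of the 83 members, 16 had a mean above 1000, 32 lay between 100 and 1000, 30 between 10 and 100, and 5 at 10 or below. The filter on low values left 80 members, and Rpl10l, Rpl3l and Rpl6 were not tested. Rpl10l, a paralog known from the male germ line, had 1 read in all, and Rpl3l, a paralog known from muscle, had 7. Rpl6 is a core protein of the large subunit in all cells, and its row held 12 reads over the 7 libraries, so its tag count is no measure of that gene here. Ribosomal protein genes have many near-identical processed copies, and where the authors' counting could split reads between copies the value of a member is uncertain.

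In Rpl8, Rpl5 and Rpl10a, among the most abundant members, the prenatal libraries were the higher ones. Rpl8, a large subunit protein near the peptidyl transferase centre, stood at 17869.6, 18953, 16497 and 19512 in the prenatal libraries by age, and 10870.0, 10991 and 10622 in the postnatal ones. Rpl5, which carries the 5S ribosomal RNA, stood at 12839.5 and 16221 in the E13.5 and E15.5 libraries, 14618 and 16349.7 in the E18.5 pair, 10141 at P14 and 11566 and 8319 in the P56 pair. For Rpl8 and Rpl5 all 4 prenatal values lay above all 3 postnatal values. Rpl10a, the protein of the mobile L1 stalk, stood at 12218 (E13.5), 14603 (E15.5), 12246 and 10416 (E18.5), 7817 (P14) and 6412 and 5660.1 (P56), with all 4 prenatal values above all 3 postnatal values.

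Rplp0, Rps2, Rpsa and Rpl15, described below, also had a mean above 1000. So did Rpl13, Rpl14, Rpl24, Rpl29 and Rpl37a, which were chosen by their level after the values were seen, and Rps6. Rps6 stood at 1529.6, 2328, 1416 and 1313 in the prenatal libraries by age, and 1494, 992 and 816 in the postnatal ones, highest at E15.5 and lowest in the P56 pair. Rpl13 stood at 1505 and 1845 in the E13.5 and E15.5 libraries, 1256 and 733 in the E18.5 pair, 1200.0 at P14 and 807 and 753 in the P56 pair, and Rpl29 at 3996 (E13.5), 3294 (E15.5), 2866 and 1822 (E18.5), 2173 (P14) and 1459 and 1729 (P56). Rpl14 stood at 3894, 3686, 2747 and 2139 in the prenatal libraries by age, and 2321, 2812 and 1794 in the postnatal ones, and Rpl24 at 1386 and 1189 in the E13.5 and E15.5 libraries, 1353 and 883 in the E18.5 pair, 942 at P14 and 955 and 899.7 in the P56 pair. Rpl37a ran the other way in the adult: it stood at 3935 (E13.5), 3685 (E15.5), 4163 and 1969 (E18.5), 3659 (P14) and 4600.0 and 5328 (P56), so that both P56 values lay above the other 5. It passed no test at the threshold.

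The 2 E18.5 libraries differed from each other across the set, and the medians over members that use them are therefore given with and without the second library. Replicate 2 was below replicate 1 in 71 of 80 members, whereas replicate 1 was above replicate 2 in 48.7% of all 12964 genes tested. The gap followed coding length, the number of bases of the protein-coding part of a transcript. Among members with a mean of at least 10 the median difference (replicate 1 minus replicate 2, log2) was 0.996 for the 37 members under 450 bases, 0.83 for 19 members of 450 to 600 bases, 0.23 for 19 members of 600 to 900 bases and 0.05 for 3 longer members. Every member under 600 bases was higher in replicate 1. Other genes of the same lengths differed less, with medians of 0.33 over 386 genes under 450 bases, 0.07 over 357 genes of 450 to 600 bases, -0.03 over 774 of 600 to 900 bases and -0.07 over 4632 longer genes. The P56 libraries showed a smaller gap, with replicate 2 above replicate 1 in 63 of 80 members and in 50.3% of all genes tested. The median P56 difference (replicate 1 minus replicate 2, log2) was -0.42 for members under 450 bases and -0.24 for 450 to 600 bases. It was -0.10 for 600 to 900 bases and -0.45 for the 3 longer members. The erythroid markers summed to 0 reads in replicate 1 of E18.5 and to 130 in its replicate 2, the other marker lists are given above, and their part in the gap was not tested.

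**Figure D2:**
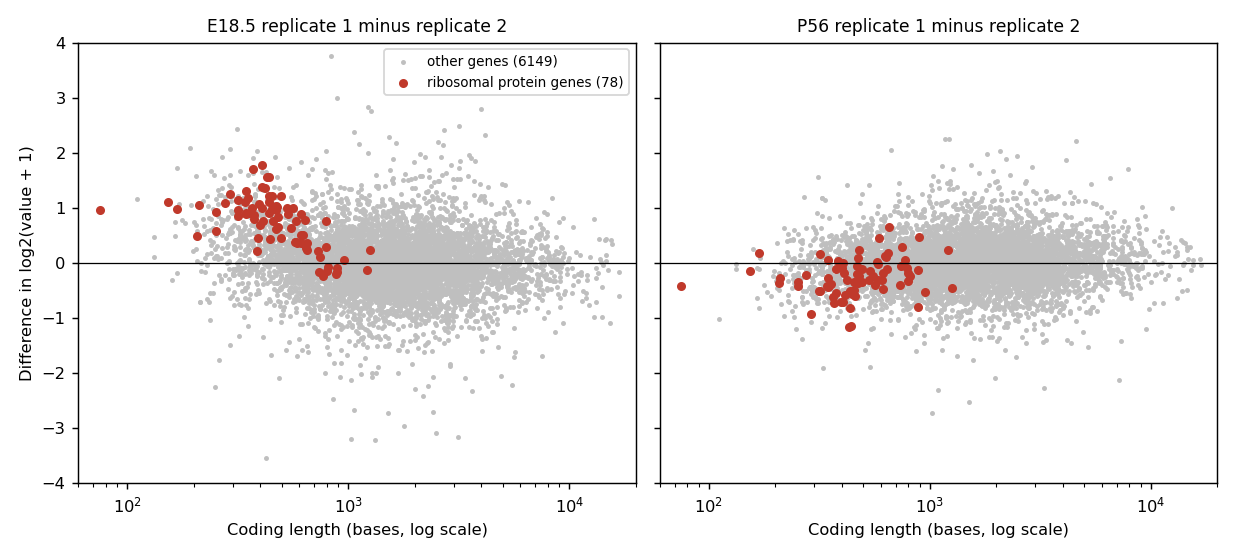
Difference between the 2 libraries of a stage in log2(value + 1) against coding length in bases (log scale), at E18.5 on the left and P56 on the right, with 78 member genes in red and other genes with a mean of at least 10 in grey. At E18.5 members under 450 bases lie above 0, with a median of 0.996, and longer members lie nearer 0.

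At E18.5 the ribosomal protein genes stood below the early libraries. In E18.5 against the mean of E13.5 and E15.5, 78 of 80 members had a value below 0, 25 fell and 0 rose at an adjusted p under 0.05 (limma-trend, Benjamini-Hochberg over all genes). That is 31.25% of members against 13.4% of all genes called lower, while 15.8% of all genes were called higher. The median log2 change was -0.84 over members and 0.03 over all genes. Of the 33 small subunit members 13 fell, and of the 47 tested large subunit members 12 fell.

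Rps23, a small subunit protein of the decoding centre, stood at 149, 89.7, 48.9 and 15.8 in the prenatal libraries by age, and 73.7, 40.7 and 92.0 in the postnatal ones, a log2 change of -2.01 (SE 0.551, adjusted p = 0.0317). Rps16 stood at 91.9 and 54.2 in the E13.5 and E15.5 libraries, 29.6 and 9.42 in the E18.5 pair, 42.9 at P14 and 21.9 and 49.9 in the P56 pair, a log2 change of -2.003 (SE 0.558, adjusted p = 0.0334). In both the second E18.5 library was the lowest of all 7, and the first lay between the 2 P56 libraries. Rpl35, at the polypeptide exit, stood at 55.8 (E13.5), 31.2 (E15.5), 20.8 and 5.65 (E18.5), 22.8 (P14) and 21.3 and 36.0 (P56), a log2 change of -1.83 (SE 0.549, adjusted p = 0.0432), and Rpl36a had a log2 change of -1.77 (SE 0.404, adjusted p = 0.0164). The stalk protein Rplp1 had a log2 change of -1.73 (SE 0.357, adjusted p = 0.0112). Rps27a, made as a fusion with ubiquitin, stood at 237, 174, 99.7 and 50.9 in the prenatal libraries by age, and 104, 102 and 118 in the postnatal ones, a log2 change of -1.498 (SE 0.318, adjusted p = 0.0126), and Rpsa, a small subunit protein also known as a laminin receptor, had a log2 change of -0.85 (SE 0.156, adjusted p = 0.00681). Both E18.5 libraries of Rps27a and of Rpsa stood below both early libraries.

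The size of this fall differed with the E18.5 library used. The median over members was -1.19 without replicate 1 and -0.47 without replicate 2, and over all genes it was 0.013 in both fits. In edgeR the median over members was -1.20 without replicate 1 and -0.45 without replicate 2. Not all of the calls were kept in edgeR without replicate 2. By coding length the median was -1.10 for members under 450 bases, -0.70, -0.56 and -0.39 for the longer groups, and without replicate 2 it was -0.65, -0.34, -0.44 and -0.36. limma-trend, left with 1 residual degree of freedom, called 0 members without any 1 of the 4 replicated libraries, and 3 without robust variance and 1 without the filter on low values. Scaling to the library total moved the median of all genes from 0.03 to -0.11 and called 42 members lower, and scaling to the total without members' reads moved it to -0.20 and called 48.

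A second comparison, added after the data were seen, leaves the E18.5 levels aside and sets P56 against the mean of E13.5 and E15.5. In it 67 of 80 members had a value below 0, 19 fell and 0 rose, or 23.75% of members against 15% of all genes called lower and 19.3% called higher. The median log2 change was -0.57 over members and 0.04 over all genes. The members that fell belonged to both subunits, 9 of 33 small and 10 of 47 large.

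Rps2, a small subunit protein near the mRNA entry, stood at 13334 and 8751 in the E13.5 and E15.5 libraries, 4541 and 5228 in the E18.5 pair, 3844 at P14 and 2355 and 4115 in the P56 pair, a log2 change of -1.79 (SE 0.263, adjusted p = 0.00218). Rps2 is ENSMUSG00000044533.15, chr17:24718116-24721929, + strand in GENCODE vM21 on mm10. Its early mean was 3.41 times its P56 mean. Rpsa stood at 9390.4 (E13.5), 7629.8 (E15.5), 4544 and 4826 (E18.5), 2719.7 (P14) and 2844 and 3117 (P56), a log2 change of -1.51 (SE 0.156, adjusted p = 0.000415). Rpsa is ENSMUSG00000032518.6, chr9:120127689-120132369, + strand. Both early values of Rps2 and of Rpsa lay above every other library. Rpl15, a large subunit protein, stood at 7060.4, 7073, 4932 and 3847 in the prenatal libraries by age, and 3473, 2342 and 2663 in the postnatal ones, a log2 change of -1.5001 (SE 0.184, adjusted p = 0.000942). Rpl15 is ENSMUSG00000012405.16, chr14:18267823-18271391, - strand. Rpl12, at the base of the stalk, stood at 73.0 and 72.5 in the E13.5 and E15.5 libraries, 41.2 and 29.8 in the E18.5 pair, 21.7 at P14 and 27.6 and 29.8 in the P56 pair, a log2 change of -1.31 (SE 0.262, adjusted p = 0.00795). Rps6, the ribosomal protein phosphorylated by S6 kinase, fell by 1.07 on the log2 scale (adjusted p = 0.00359). Further members that fell included Rpl3, Rpl4, Rpl7, Rpl8, Rpl10a, Rpl13, Rpl29, Rplp0, Rps3, Rps3a1, Rps7 and Rps18, of which those outside the naming rule were named after their values were seen. In edgeR 28 members were lower and 1 was higher, Rps27 (log2 1.05, adjusted p = 0.0262), whose limma value was 1.07 (adjusted p = 0.0508). All 19 kept their call in edgeR without either E18.5 library, 12 without P56 replicate 1 and 18 without P56 replicate 2. limma-trend called 9 without either E18.5 library, 0 without either P56 library, 12 without robust variance and 4 without the filter on low values, and scaling to the total without members' reads called 33.

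**Figure D3:**
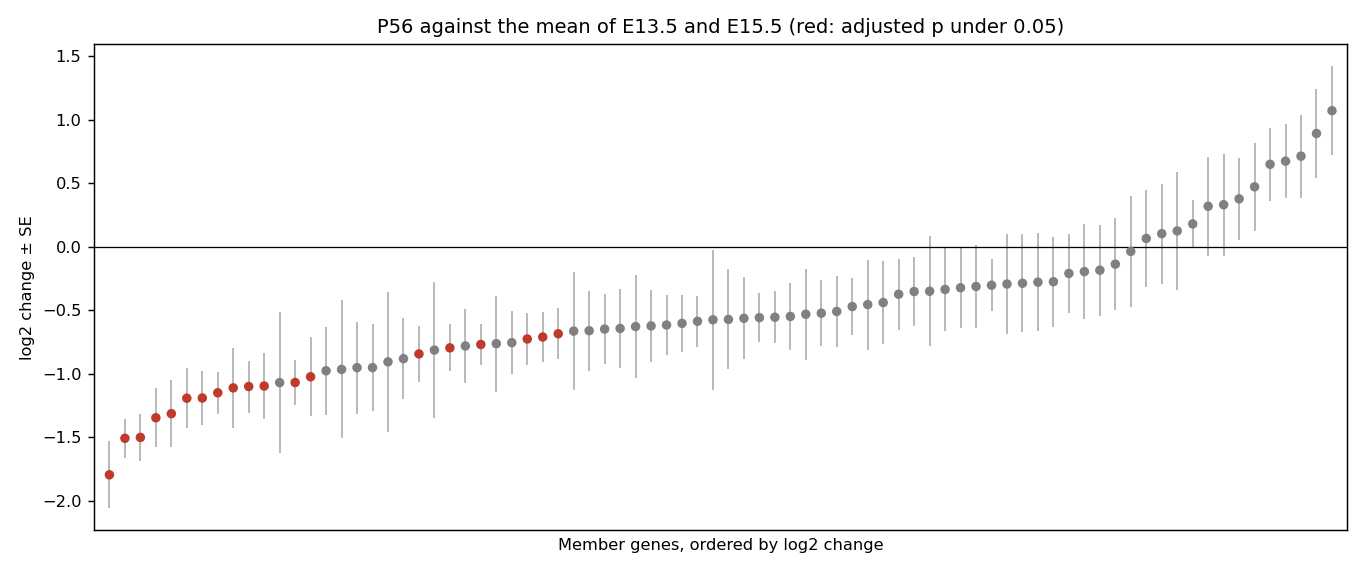
log2 change (vertical axis) of each tested member at P56 against the mean of E13.5 and E15.5, in order of the change, with its standard error as bars and calls at an adjusted p under 0.05 in red. The calls are the 19 members that fell, and Rps27 has the highest value, 1.07.

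The size of this change went with coding length. At P56 against the early libraries the median was -0.29 for members under 450 bases, -0.65 for 450 to 600, -0.75 for 600 to 900 and -0.84 for 3 longer members, against 0.19, 0.13, 0.13 and 0.17 for other genes. Over 78 members the change correlated with coding length (Spearman rho -0.59, across genes of the same 7 libraries, which are not independent replicates). Both early libraries stood above all 3 postnatal libraries in 51 of 80 members, against 26.7% of all genes tested. Both stood below all 3 in 4 members, Rpl10, Rpl21, Rps27 and Rps29, against 30% of all genes. Rpl10, which joins the large subunit late in its assembly, stood at 293 (E13.5), 267 (E15.5), 328 and 273 (E18.5), 327 (P14) and 306 and 329 (P56). Rpl21 stood at 132, 163, 157 and 88.2 in the prenatal libraries by age, and 213, 255 and 215 in the postnatal ones, and Rps29 at 38.8 and 42.3 in the E13.5 and E15.5 libraries, 41.6 and 20.7 in the E18.5 pair, 42.9 at P14 and 60.3 and 53.1 in the P56 pair. For Rpl10 the early and later values lay close together, and for Rpl21 and Rps29 the second E18.5 library was the lowest of all. Rpl21 and Rps29 were named after their values were seen, and none of the 4 passed the test in this comparison.

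**Figure D4:**
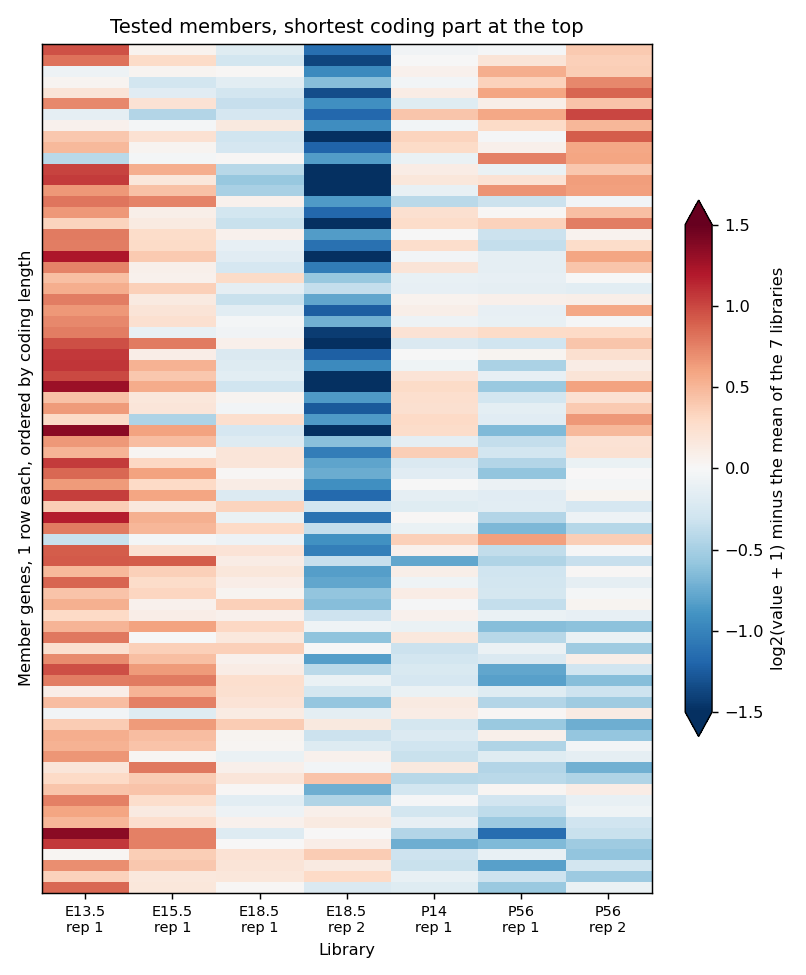
log2(value + 1) of each tested member minus its mean over the 7 libraries, in color, with members ordered from the shortest coding part at the top. The early libraries are highest for most members, and the second E18.5 library is lowest for most of the short ones.

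Between E18.5 and P56 members were called in both directions, at no higher share than all genes. Of 80 members 5 rose and 4 fell, or 6.25% and 5% against 8.07% and 6.15% of all genes called higher and lower, so the shares of members lay near those of all genes. Those that rose each had a coding part under 450 bases: Rplp2 (log2 1.79, SE 0.393, adjusted p = 0.0243), Rplp1 (log2 1.55, SE 0.357, adjusted p = 0.0291), Rpl38 (log2 1.53, SE 0.327, adjusted p = 0.022), Rps27 (log2 1.51, SE 0.351, adjusted p = 0.0302) and Rpl34 (log2 1.48, SE 0.388, adjusted p = 0.0454). Rpl38, known for its part in the translation of Hox mRNAs in the embryo, stood at 1015 (E13.5), 789 (E15.5), 731 and 352 (E18.5), 957 (P14) and 1334 and 1618 (P56), and the second E18.5 library was again the lowest. Those that fell were Rpl10a (log2 -0.91, SE 0.165, adjusted p = 0.0124), Rpl15 (log2 -0.80, SE 0.184, adjusted p = 0.0285), Rpl8 (log2 -0.73, SE 0.158, adjusted p = 0.023) and Rpsa (log2 -0.65, SE 0.156, adjusted p = 0.0323), each with a mean above 1000. The median log2 change was 0.32 over members, -0.05 without E18.5 replicate 2 and 0.73 without replicate 1, and it was 0.06 over all genes. edgeR kept all 9 calls without either E18.5 library, 4 without P56 replicate 1 and 1, Rpl15, without P56 replicate 2. Rpl34 lost its call under each of the 4 other scalings, and without robust variance or without the filter on low values none of the 9 was called.

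Neither comparison with P14 called a member. P14 against E18.5 called 0 higher and 0 lower by limma-trend, while edgeR called 0 and DESeq2 called 2 lower, Rpl8 and Rpsa. At an unadjusted p under 0.05 limma-trend had 4 members higher and 4 lower, or 5% and 5%. Of all genes 1426 were higher and 964 lower there, or 11% and 7.44%. Of all genes 1.87% were called higher and 1.24% lower by limma-trend. The median over members was 0.34, and -0.0051 without E18.5 replicate 2. Without replicate 1 it was 0.71, against 0.06 over all genes in that fit. P56 against P14 called 0 members by limma-trend, edgeR and DESeq2, where limma-trend called 0.123% of all genes higher and 0.694% lower. Before adjustment, with p under 0.05, it had 0 members higher and 1 lower, or 0% and 1.25%, against 4.99% and 5.35% of all genes at that same threshold. P14 has 1 library, so the test leaned on the spread at E18.5 and P56.

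Between the 2 early libraries, 1 each and so without a test, 66 of 80 members were lower at E15.5. The median ratio of E15.5 to E13.5 was 0.797 over members, from 0.350 to 1.52, and 0.987 over all genes tested. No member was at least 2-fold higher, against 15.1% of all genes, and 1 was at least 2-fold lower, Rps12l2, against 11.6%. Rps12l2 set the low end of that range on few reads, 91 at E13.5 and 21 at E15.5. No coding length was found for its symbol. Rpl10a, Rpl5 and Rpl8 were higher at E15.5. Rpl11, which joins Rpl5 in the 5S particle, stood at 459, 303, 268 and 145 in the prenatal libraries by age, and 239, 206 and 228 in the postnatal ones.

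The stalk proteins differed among themselves. Rplp0 forms the base of the stalk and binds the rRNA, and Rplp1 and Rplp2 bind to it as pairs. Rplp0 stood at 10214 and 8304 in the E13.5 and E15.5 libraries, 7168 and 6932 in the E18.5 pair, 5002 at P14 and 3567 and 5178 in the P56 pair. Rplp1 stood at 313 (E13.5), 170.4 (E15.5), 101 and 46.7 (E18.5), 170.3 (P14) and 176 and 235 (P56), and Rplp2 at 147, 128, 66.6 and 26.4 in the prenatal libraries by age, and 86.4, 151 and 144 in the postnatal ones. The ratio of Rplp1 to Rplp0 was 0.0307, 0.0205, 0.0141 and 0.00674 in the 4 prenatal libraries, ordered by age and replicate, and 0.0340, 0.0494 and 0.0453 in the 3 postnatal ones. The ratio of Rplp2 to Rplp0 was 0.0144, 0.0154, 0.00929 and 0.00380 before birth and 0.0173, 0.0422 and 0.0279 after. All postnatal ratios lay above all prenatal ones in both pairs. An exact 2-sided permutation test of the 4 prenatal against the 3 postnatal libraries gave p = 0.0571 for each, the smallest value the design allows. It was 0.133 after adjustment over the 7 pairs tested. Each group pools stages, and the ratio of Rplp1 to Rplp0 fell with age before birth, so the test does not place a step at birth. Without E18.5 replicate 2 the groups still did not overlap in either pair, and p was 0.1 for each, the smallest that 3 libraries against 3 allow. Rplp2 itself fell at E18.5 against the early libraries (log2 -1.68, SE 0.393, adjusted p = 0.0178) and rose at P56 against E18.5. The coding parts of Rplp1 and Rplp2 have 342 and 345 bases and that of Rplp0 has 951, and the changes above differed with coding length. Other pairs of a short and a long member were not compared, so these ratios are not shown to be particular to the stalk.

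Paralogs of ribosomal proteins were compared with their partners within a library, which cancels the scaling. Rps27l, a paralog of Rps27 known as a p53 target, stood at 42.1 and 29.4 in the E13.5 and E15.5 libraries, 19.6 and 12.8 in the E18.5 pair, 22.0 at P14 and 26.7 and 34.3 in the P56 pair, and Rps27 at 36.2 (E13.5), 29.1 (E15.5), 33.1 and 17.0 (E18.5), 53.4 (P14) and 59.8 and 80.3 (P56). Their ratio was 1.16, 1.01, 0.593 and 0.756 before birth, in the same order, and 0.412, 0.448 and 0.427 after. Every prenatal ratio lay above every postnatal one (exact 2-sided permutation p = 0.0571, adjusted 0.133), also without E18.5 replicate 2 (exact p = 0.1). Here too each group pools stages, and the ratio differed among the prenatal libraries. The ratio of Rpl36al to Rpl36a was 0.221, 0.407, 0.833 and 1.03 before birth and 0.526, 1.13 and 0.702 after, so the groups overlapped (exact p = 0.514). Rpl22l1 over Rpl22 (exact p = 0.4), Rpl7l1 over Rpl7 (exact p = 0.571) and Rps4l over Rps4x (exact p = 0.229) overlapped between the groups. Rpl39l is not analysed here. Of the partners, Rpl3 stood at 150.3, 131, 132 and 145 in the prenatal libraries by age, and 108, 94.8 and 80.0 in the postnatal ones, and Rpl22 at 79.2 and 69.3 in the E13.5 and E15.5 libraries, 48.9 and 41.8 in the E18.5 pair, 49.5 at P14 and 48.9 and 47.9 in the P56 pair. Rpl3, which lies near the peptidyl transferase centre, fell at P56 against the early libraries, while Rpl22 did not pass the test in any comparison. Rps4x, the X-linked small subunit protein, stood at 154 (E13.5), 155 (E15.5), 117 and 68.6 (E18.5), 94.4 (P14) and 117 and 124 (P56), and Rpl39, at the exit tunnel, at 48.7, 33.4, 22.3 and 9.80 in the prenatal libraries by age, and 27.0, 31.3 and 34.98 in the postnatal ones. Of these 2 only Rpl39 passed a test, as a fall at E18.5 against the early libraries (log2 -1.38, SE 0.384, adjusted p = 0.0334). The pairs shown for Rplp1, Rplp2 and Rps27l were singled out after their values were seen.

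**Figure D5:**
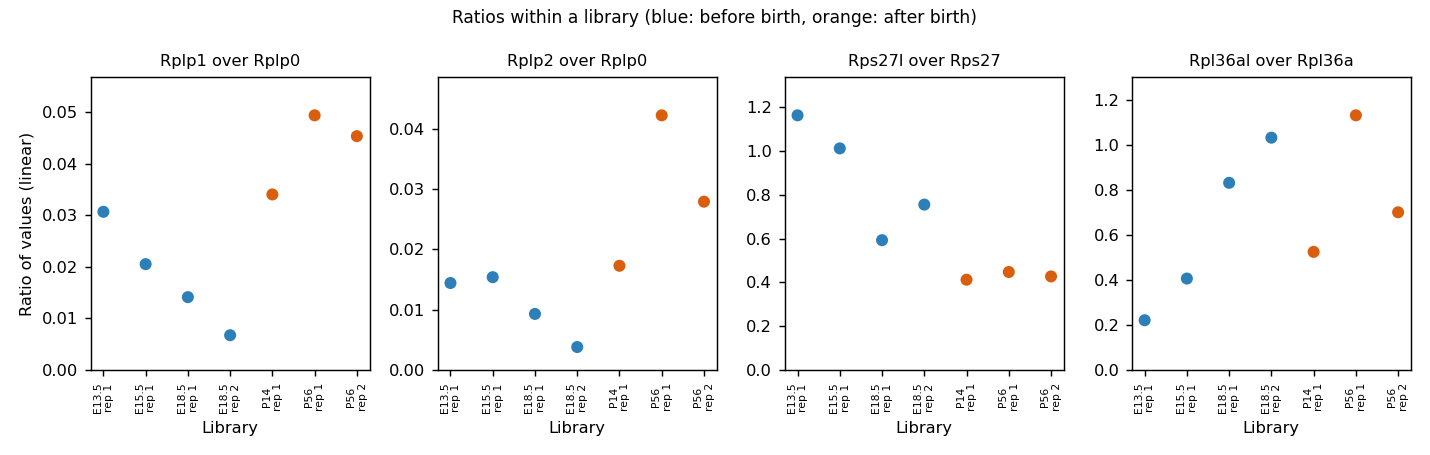
Ratio of 2 member genes within each library, before birth in blue and after birth in orange, on linear axes that start at 0. The Rps27l to Rps27 ratio is 0.593 or higher before birth and 0.448 or lower after, and the ratios to Rplp0 are higher after birth.

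The pyrimidine tract was looked for at the annotated start of each member, since it is the feature these mRNAs are known to share. In RefSeq's GRCm38.p6 start windows, 250 bases before to 50 after the annotated start, 61 of 83 members were matched by symbol. A C at the start followed by at least 4 bases C or T stood in 11 of 61 members (18.03%), in 3.03% of other tested genes and in 3.01% of all 27025 genes in the table. Annotated starts can lie several bases from the start used in a cell, and a match is a description of these letters. The 6 windows below belong to members named above that fell at P56 against the early libraries (Rpl15, Rps6, Rps18) or rose at P56 against E18.5 (Rpl38, Rps27, Rplp2). Some of them were called in other comparisons too, as Rplp2 was, which fell at E18.5 against the early libraries. Each holds 20 bases before and 10 from the start, 5' to 3', with the tract in capitals.
Rpl15: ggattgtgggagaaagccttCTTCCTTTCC
Rps6: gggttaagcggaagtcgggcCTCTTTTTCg
Rps18: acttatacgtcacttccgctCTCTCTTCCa
Rpl38: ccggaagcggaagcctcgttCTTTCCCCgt
Rps27: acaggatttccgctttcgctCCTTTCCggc
Rplp2: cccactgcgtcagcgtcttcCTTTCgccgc
They lie at chr14:18270977-18271006 on the - strand, chr4:86857358-86857387 on the - strand, chr17:33955656-33955685 on the - strand, chr11:114668560-114668589 on the + strand, chr3:90213639-90213668 on the - strand and chr7:141447631-141447660 on the + strand. The motif CCGGAAG, searched on both strands, stood in 39.3% of member windows and 19.5% of other tested genes, AAGATGGC in 8.20% and 5.09%, and TATAAA in 11.5% and 8.84%.

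Other genes of the translation machinery were taken from lists chosen with earlier results of these data known, and their counts stand beside those of all genes. At P56 against the early libraries 15% of all genes were called lower and 19.3% higher, and at E18.5 against them 13.4% lower and 15.8% higher. Of 38 ribosome assembly genes and RNA polymerase I parts, 18 fell and 0 rose at P56 against the early libraries (47.4% lower, median log2 -0.996), and 14 fell at E18.5 against them (36.8%). Npm1, a nucleolar chaperone, stood at 177 and 74.3 in the E13.5 and E15.5 libraries, 34.6 and 21.1 in the E18.5 pair, 25.9 at P14 and 19.4 and 18.8 in the P56 pair, and Dkc1, of the box H/ACA particles, at 354 (E13.5), 225 (E15.5), 53.5 and 47.8 (E18.5), 79.2 (P14) and 66.9 and 58.3 (P56). Both early values of each lay above all 5 later ones. Of 73 mitochondrial ribosomal protein genes tested, 13 fell and 0 rose at P56 (17.8% lower, near the share over all genes), and 17 fell and 0 rose at E18.5 (23.3%). Of 23 translation factors and other mRNAs with the tract, 10 fell and 0 rose at P56 (43.5% lower), and 8 fell and 2 rose at E18.5 (34.8% and 8.7%). In the Myc and mTOR list of 18, 2 rose and 2 fell at P56 against the early libraries (11.1% each way, below the shares over all genes): the transcription factors Myc (log2 1.89) and Mycn (-4.06) went opposite ways, Mxd4 rose (1.23) and Mycl fell (-3.18). Of 9 tested snoRNA host genes 0 were called in that comparison, and 3 fell at E18.5 against the early libraries, Gas5, Snhg1 and Snhg5. In edgeR without E18.5 replicate 2, the falls at E18.5 against the early libraries were 15 of the assembly genes, 16 of the mitochondrial list, 8 of the translation factors and 1 of the snoRNA hosts, Snhg5, against 13.2% of all genes. Among 12 tested rows of ribosomal protein pseudogenes 2 rose at P56 against E18.5 (16.7%, against 8.07% of all genes), Rpl34-ps1 and Rplp2-ps1, and their named partners Rpl34 and Rplp2 rose too. In edgeR without E18.5 replicate 2, Rplp2-ps1 kept its call and Rpl34-ps1 lost it, while Rpsa-ps5 was called lower.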

How the data were processed

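Lung epithelial cells were measured in 7 libraries of 5 stages, 3 stages with 1 library and 2 with 2. The deposited signal values are tag counts that the authors scaled by 1 factor per library. This was read from the values, which return whole reads for 100% of genes within 0.01 reads. The submitters' processing notes name Bowtie2 2.2.5, the mm10 build and R 3.4.0. The counting program, annotation and scaling method are not given in the sources used here.

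Reads were recovered and used for shares, with exact binomial 95% intervals. Genes that passed edgeR's filterByExpr by stage, 12964, were tested with limma-trend (limma 3.58.1, robust variance) on log2(value + 1). All 7 libraries were in 1 fit with a coefficient per stage and 2 residual degrees of freedom. The threshold was 0.05 on the p-value after Benjamini-Hochberg adjustment. Log2 changes of genes with few reads are understated by the pseudocount, and for E13.5, E15.5 and P14, each a lone library, the spread of the replicated stages was taken. The plan named limma-trend for scaled values and edgeR for raw counts, and limma-trend was used because the values are scaled. edgeR 4.0.16 and DESeq2 1.42.0 on the recovered reads, other scalings, pseudocounts of 0.5 and 5, no filter, non-robust variance, leaving out each library and a replicate block were alternatives. The fit was tested on simulated data. R was 4.3.3, Python 3.11.15 and scipy 1.17.1. Coding length and gene position came from GENCODE vM21 and covered 85.4% of tested genes, and start windows came from RefSeq.

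The members and gene lists were chosen with earlier results of these data known. The comparison of P56 with the early stages, edgeR fits with a library left out, and the lists and ratios without E18.5 replicate 2 were added after the data were seen. Named genes are the 5 called members with the largest log2 change each way in a tested comparison, the paralogs with their partners, the stalk proteins, the 5 most abundant members and 5 textbook members (Rps6, Rpl5, Rpl11, Rpsa, Rps27a). Rows of pseudogenes marked -ps, 0.219% to 0.468% of reads, were left out. Some members and 1 alternative for the share of reads are not reported here.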

Additional observations from a re-analysis of the deposited data

How the results depend on the processing

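In every setting with a test the called members changed in the direction given, and 0 reversed. P56 against E18.5 had 5 members higher and 4 lower. Without the filter on low values, without robust variance and with the replicate block it had 0 and 0. The lower count was 7 with TMM scaling, 9 in edgeR and 7 in DESeq2. Leaving out 1 library gave 0 to 0 in both directions with limma, and in edgeR 0 to 34 higher and 2 to 12 lower, with 34 higher and 8 lower without E18.5 replicate 1. E18.5 against the early libraries had 25 lower. The count was 42 with library total scaling, 48 with the total without member reads, 1 without the filter, 3 without robust variance and 2 with the replicate block. Leaving out 1 library gave 0 to 0 with limma and 15 to 62 in edgeR. P14 against E18.5 had 2 lower in DESeq2, and in edgeR with 1 library left out 0 to 30 higher and 0 to 3 lower. P56 against P14 had 0 to 1 lower there. P56 against the early libraries had 19 lower and 0 higher. Lower counts were 33 with the total without member reads, 4 without the filter, 12 without robust variance, 9 with the replicate block, 0 to 9 with limma and 14 to 43 in edgeR with 1 library left out. Higher counts were 1 in edgeR, 1 with a pseudocount of 5 and 0 to 4 in edgeR with 1 library left out. The cause of these shifts was not tested, except that leaving out a library leaves limma 1 residual degree of freedom.

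The share of reads at E13.5, E15.5 and P14 was 18.3%, 16.4% and 8.67% with pseudogene rows added. With the most abundant gene left out of the total it was 18.8%, 16.9%, 8.82% and, at P56, 8.12%. Replicate numbers were not treated as pairing samples: the difference between replicates 1 and 2 at E18.5 and at P56 correlated at r = 0.00982 over all tested genes and -0.536 over members. For members with few reads, such as Rpl3l with 7, depth allows no statement.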
